A study of Mus musculus with 15 samples.

Results

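The oxidative phosphorylation (OXPHOS) subunits encoded in the nucleus were followed through a Drop-seq data set of mouse cerebellum and medulloblastoma, a single-cell method in which each captured mRNA molecule is counted once through a unique molecular identifier (UMI). Members were all rows whose symbol began with Ndufa, Ndufb, Ndufc, Ndufs or Ndufv and a number, Sdha to Sdhd, symbols that began with Uqcr or Atp5, and the Cox4 to Cox8 subunit genes. This gave 83 of 27803 gene symbols: 36 genes of complex I, 4 of complex II, 8 of complex III, 16 of complex IV and 19 of the ATP synthase group. The symbols chose them and no measured value did. The spelling of the rule kept Atp5l-ps1, a pseudogene, as well as Atp5s and Atp5sl, which are not classical subunits (the product of Atp5sl is known as an assembly factor of complex I, though the spelling puts it in the ATP synthase group), and it passed over Cox4i1, Cox4i2, Cyc1 and Ndufab1.

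A total of 5 animals stood in each of 3 groups, and the animal was the replicate. The WT group held cerebella of C57BL/6 mice at postnatal day 7 (P7). Both other groups held medulloblastomas of M-Smo mice, labelled Math1-Cre:SmoM2/EYFPloxP/loxP on C57BL/6, in which Cre driven by the Math1 (Atoh1) promoter switches on SmoM2, a constitutively active Smoothened, so that Sonic hedgehog signalling runs without its ligand in the granule neuron lineage. All tumors carried these alleles, treated or not. These mice received vismodegib, an inhibitor of Smoothened, at 75 mg/kg, or vehicle, in 3 daily doses from P12 to P14, and the tumors were taken at P15. WT and tumor samples therefore differed at once in age and genotype, in the microfluidic device, and in an added human cell spike-in whose reads were first separated by alignment to a mixed human and mouse genome, and these cannot be told apart in any comparison of tumor with WT.

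After filtering, 37946 cells remained, 18293 from vehicle tumors, 12429 from vismodegib tumors and 7224 from WT cerebella, with a median of 1141 to 2597 UMIs per cell in the tumors and 1082.5 to 1625 in WT. No pair of libraries shared more than 13 cell barcodes. Cells were clustered without the members and without the pathway genes described below, though the cytosolic ribosomal protein genes were left in, and clusters were called by markers. Node A-like cells were dividing (Mki67, Top2a), Node B-like cells carried Atoh1, Gli1 and Ptch1, Node C-like cells Neurod1 and Cntn2, and Node D-like cells Grin2b, Rbfox3 and Neurod2, in the order in which granule neuron progenitors mature, and the sum of these 4 stages is called the granule lineage. Part of the Node B-like class was replicating too, since tumor cluster 1 (4166 cells) was led by Tcf19, Tyms, Ccne2, Pcna and Rrm2. These names were rebuilt here, so that they need not match the study's own cell for cell. A total of 3 clusters in these stages were led by hemoglobin genes (tumor cluster 7 with 1478 Node D-like cells, WT cluster 2 with 712 Node C-like cells and WT cluster 7 with 613 Node B-like cells), and at a finer clustering 397 WT cells led by Calb2, Grp and Eomes left the Node D-like class for one named after unipolar brush cells. Counts without the hemoglobin-led clusters, or at the finer clustering, are given where they differed by more than 1.5 times. The tumors also fell into 2 sets, already known from earlier work on these data, that the labels do not mention: set 1 with vehicle 1 and 3 and vismodegib 1, 2 and 3, and set 2 with the other 5.

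Oxidative phosphorylation is carried out by several large assemblies in the inner mitochondrial membrane. Complex I takes electrons from NADH and complex II from succinate, complex III passes them to cytochrome c, complex IV hands them to oxygen, and ATP synthase uses the proton gradient that complexes I, III and IV build. A few core subunits are encoded in mitochondrial DNA, while the great majority, and all of complex II, are nuclear genes whose transcription is known to depend on NRF1, on ETS factors such as GABP and on YY1. Granule neuron progenitors driven by Sonic hedgehog are known for aerobic glycolysis during their division, and mature neurons for their reliance on oxidative phosphorylation.

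Together the members took 2301724 UMIs, 2.88% of all UMIs in the kept cells. The member with the most UMIs was Ndufa4 for complex I (92137 UMIs), a protein first placed in complex I and nowadays assigned to complex IV, and it was Sdhb, the iron-sulfur subunit, for complex II (22874), Uqcrh, the hinge protein, for complex III (48279), Cox6a1 for complex IV (81270) and Atp5j, the coupling factor subunit, for ATP synthase (65883). UMI totals are not divided by transcript length, and Drop-seq reads one end of a transcript, so totals of different genes are not compared as expression levels. Only 6 members stayed under 100 UMIs, and these were Atp5l2, Atp5g2, Cox7b2, Cox8b, Atp5l-ps1 and Cox8c. For 31 of the 83 members the last 200 bases of a transcript aligned over at least 50 bases at 95% identity or more to a transcript of another gene, so reads of these members could have been lost or moved to the copy during alignment.

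Promoters of the members held the letters of known OXPHOS regulators more often than promoters in general, when 250 bases before to 50 after each start were read on both strands. Of 66 member genes with a RefSeq promoter (GRCm38.p6), 15.2% held GCGCATGC, the core letters of an NRF1 site, against 3.05% of 27025 genes. CCGGAAG, the ETS core, was found in 24.2% against 9.93%, and AAGATGGC, the YY1 core, in 13.6% against 3.19%. TGACGTCA, a cyclic AMP response element, stood in 6.06% against 2.03%, while CCAAT differed little (43.9% against 41.1%). Both promoters shown here belong to members that carried an NRF1 and an ETS core, Cox6a1 of complex IV (chr5:115348909-115349208, minus strand) and Uqcr11 of complex III (chr10:80406772-80407071, minus strand). Capitals mark the cores on either strand, and adjoining or overlapping hits are one run of capitals. A match of letters is a description and not evidence of binding.
Cox6a1: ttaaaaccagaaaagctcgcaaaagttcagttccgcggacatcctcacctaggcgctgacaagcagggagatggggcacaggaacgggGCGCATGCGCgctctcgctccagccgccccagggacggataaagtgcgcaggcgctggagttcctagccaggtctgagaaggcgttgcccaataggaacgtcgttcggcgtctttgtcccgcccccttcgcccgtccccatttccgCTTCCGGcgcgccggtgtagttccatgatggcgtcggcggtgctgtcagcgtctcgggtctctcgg
Uqcr11: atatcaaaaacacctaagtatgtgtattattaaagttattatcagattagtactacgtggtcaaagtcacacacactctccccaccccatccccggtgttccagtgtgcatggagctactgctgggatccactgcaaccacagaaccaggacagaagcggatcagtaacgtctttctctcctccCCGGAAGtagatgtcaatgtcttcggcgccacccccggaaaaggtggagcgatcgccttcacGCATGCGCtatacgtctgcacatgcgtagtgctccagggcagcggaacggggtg

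Purkinje-like cells gave the members the highest share of UMIs among the classes found. These cells, led by Pcp2, Calb1 and Car8, came from WT cerebella only (107 cells), and 3 animals held at least 10 of them. Members took 6.54, 7.205 and 6.41% of the UMIs of Purkinje-like cells in WT 1, 3 and 4, and 3.097, 3.38, 3.49, 3.18 and 2.89% of the granule lineage in WT 1 to 5. The lowest Purkinje-like value was above the highest value of the granule lineage. By edgeR quasi-likelihood tests with Benjamini-Hochberg adjustment over all genes (used throughout, with an adjusted p under 0.05 as the threshold), 66 of the 75 tested members were higher and 0 lower, against 20.4% and 22.9% of all genes tested, with a median log2 fold of 0.99 for the members and -0.20 for all genes. By complex, 32 of 36 tested members of complex I were higher, 3 of complex II, all 8 of complex III, 11 of 12 of complex IV and 12 of 15 of ATP synthase.

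Among these, Cox8a, the ubiquitous form of complex IV subunit 8, stood at 2359.9, 3214 and 3013 CPM (UMIs of the gene scaled to all UMIs of its class in that animal) in the Purkinje-like cells of WT 1, 3 and 4, and at 736, 935, 916, 923 and 862 CPM in the granule lineage of WT 1 to 5 (log2 fold 1.76 ± 0.20 (SE), adjusted p = 2.07e-17). Atp5g1, 1 of 3 genes for the c subunit of the ATP synthase ring, stood at 697, 1019 and 630.2 against 160.5, 173, 239, 149 and 159 CPM (log2 fold 2.14 ± 0.20 (SE), adjusted p = 6.12e-24). All Purkinje-like values of both genes were above all granule lineage values. Cox6a2, the heart and muscle form of subunit 6a, was counted 31 times among 416442 UMIs of Purkinje-like cells. In the granule lineage of the same 3 animals it was counted 2 times among 6882536 UMIs. The ratio of these pooled counts was 256, with no interval given, since UMIs are not replicates. The level of Cox6a2 in the Purkinje-like cells of WT 1, 3 and 4 was 76.1, 137 and 43.2 CPM. Cox6a2, Cox6b2 and Atp5sl are among the 66, but each entered the test through its Purkinje-like counts, so their calls are given no weight here. Cox6b2, a form of subunit 6b best known from testis, stood at 40.1, 39.2 and 34.5 CPM from 16 UMIs, against 4.69, 7.25, 5.696, 4.94 and 1.78 CPM. Cox7b rose by 1.70 and Atp5g3 by 1.71 on the log2 scale.

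The mitochondrially encoded transcripts were higher in Purkinje-like cells as well. All 8 tested transcripts of mitochondrial DNA were higher, mt-Nd4 by 1.94 on the log2 scale, and they took 4.25 ± 1.66% (SD, n = 3) of the UMIs. Of the tricarboxylic acid cycle and pyruvate genes 14 of 19 were higher and 1 lower, with Idh3a, a subunit of the NAD-dependent isocitrate dehydrogenase, at 1.98 and the NADP-dependent Idh2 at -2.97. Ppargc1a and Ppargc1b, coactivators of mitochondrial biogenesis, had the highest log2 folds of the biogenesis regulators, 4.07 and 4.84. Of the 10 tested regulators 4 were higher and 1 lower, Ssbp1, the mitochondrial single-stranded DNA binding protein, at -1.71, and the median log2 fold was -0.53. Of the cytosolic ribosomal protein genes, 53 were lower and 1 higher. Entry into a test through the counts of 1 class or group was checked for members only, so calls of genes in these lists carry that limit here and below.

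In the tumors, the highest share was that of a small class of neurons. These 322 cells were led by Gabra6 and Cbln3, which mark granule neurons of the internal granule layer, and by Snhg11 and Meg3, the markers that gave the class its name (neuron-like); by marker fold alone the cluster would have been called Node D-like. Their share on members was 3.57, 4.22, 5.19 and 6.08% in vehicle 1, 2, 4 and 5 and 3.32, 2.94, 5.38 and 4.95% in vismodegib 1, 2, 4 and 5, while Node D-like cells had 2.12, 2.54, 1.72, 2.58 and 2.78% in vehicle 1 to 5 and 2.14, 1.72, 2.302, 2.65 and 2.55% in vismodegib 1 to 5. Neuron-like cells were above the Node D-like cells of their own tumor in all 4 vehicle and all 4 vismodegib tumors. Against Node D-like cells 68 of the 72 tested members were higher and 1 lower, against 14.1% and 16.1% of all genes tested (median log2 fold 0.88, all genes -0.07). With the set 1 tumors alone 14 were higher and 0 lower. That fit held only vehicle 1 and vismodegib 1 and 2, with 17, 15 and 18 neuron-like cells. The share of all genes called in it is not given, so the smaller count is not read as a result about the members.

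Cox8a was at 2298, 2058, 3702 and 4836 CPM in the neuron-like cells of vehicle 1, 2, 4 and 5 and at 808, 654, 3447 and 3410.3 in those of vismodegib 1, 2, 4 and 5, against 584, 682, 394, 782 and 1014 and 267, 347, 693, 919 and 914 CPM in Node D-like cells (log2 fold 1.90 ± 0.11 (SE), adjusted p = 1.12e-62). Vismodegib 1 and 2 had the lowest Cox8a in both classes, and their neuron-like values lay within the range of the Node D-like cells of other tumors. Uqcrq, a small subunit of complex III, had a log2 fold of 1.46. Atp5g1, Atp5l and Ndufs5 entered this test through their neuron-like counts and have no weight in the number higher. Cox7a2l (SCAF1), known for joining complexes III and IV into supercomplexes, was the only member called lower, at 115, 114, 50.7 and 179.9 and 53.9, 123, 93.3 and 165 CPM (log2 fold -0.55 ± 0.22 (SE), adjusted p = 0.0407). Its neuron-like sums were small and that call was lost in set 1 alone, in set 2 alone and in some fits without 1 tumor. Only 1 of 7 tested mitochondrial DNA transcripts was higher in neuron-like cells, mt-Nd1 by 0.49, and the share of these transcripts was 1.05 ± 0.195% and 0.862 ± 0.239% (SD, n = 4 each) beside 0.772 ± 0.248% and 0.813 ± 0.276% (SD, n = 5 each) in Node D-like cells.

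**Figure D1:**
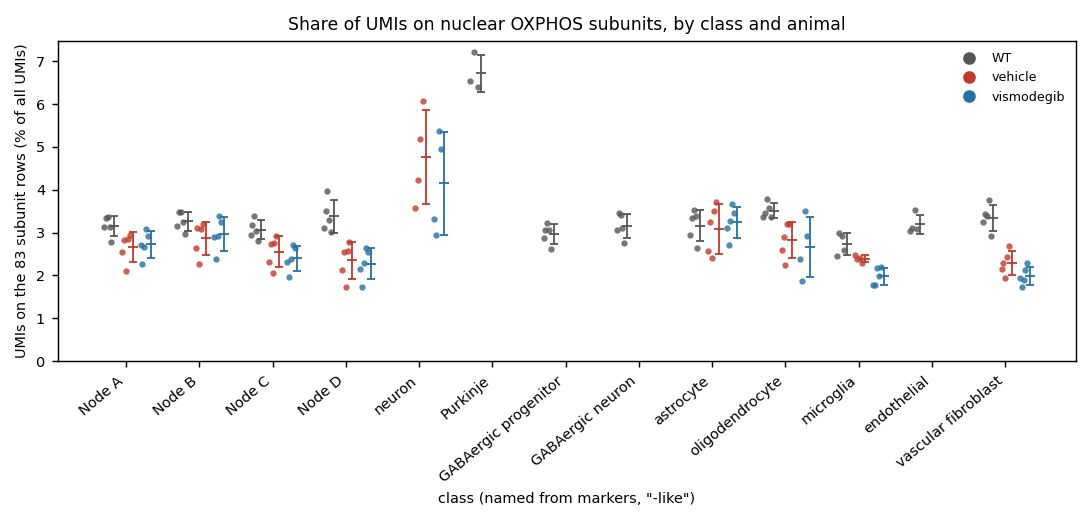
Percent of all UMIs that fell on the 83 members (vertical axis), by class of cells (horizontal axis) in WT, vehicle and vismodegib animals; each point is 1 animal, and bars give the group mean ± SD. Purkinje-like cells lie highest, from 6.41% to 7.205%, and in Node D-like cells all 10 tumors lie below the lowest WT animal.

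Astrocyte-like cells carried more of the members than the granule lineage in the tumors. In tumors 52 of the 75 tested members were higher and 0 lower, against 20.8% and 25.6% of all genes tested (median log2 fold 0.37, all genes -0.13), and the share was above that of the granule lineage in all 5 vehicle and all 5 vismodegib tumors. Cox6b2 and Atp5s are among the 52 but are given no weight, as both were low in the granule lineage (at most 10.7 and 12.9 CPM in any tumor) and entered the test through their counts in astrocyte-like cells. In the set 1 tumors alone the number higher fell to 13, in a fit of fewer tumors. The share of all genes called in that fit is not given, so the fall is not read as a result about the members. Uqcr10, a small complex III subunit, stood at 265, 562, 434, 632 and 705 CPM in vehicle and 580.5, 817, 499, 802 and 608 in vismodegib astrocyte-like cells, against 355, 382, 241, 318 and 331 and 393, 341, 334, 385 and 317 in the granule lineage (log2 fold 0.93 ± 0.12 (SE), adjusted p = 1.15e-07). Apart from vehicle 1, every tumor had more Uqcr10 in astrocyte-like cells than any tumor had in the granule lineage. In WT, 20 of the 74 tested members were higher and 8 lower, against 22.2% and 21.1% of all genes tested, with the 2 directions on either side of a median of 0.12. Atp5s is again among those called higher, entered in the same way and has no weight. There Ndufc2, an accessory subunit of the membrane arm of complex I, stood at 1096, 1204, 1003, 1160.1 and 850.3 CPM against 512, 484, 504, 431 and 407 in the granule lineage (log2 fold 1.32 ± 0.09 (SE), adjusted p = 4.85e-27), while Cox7a2, the widely expressed form of subunit 7a, was lower (log2 fold -0.62 ± 0.09 (SE), adjusted p = 8.91e-09). The Ndufc2 values of both classes did not overlap. A gene model, Gm16053, overlaps Ndufc2 on the same strand.

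Other WT classes were compared with the granule lineage in the same way, except the GABAergic progenitor-like class, where members took 2.87, 3.05, 3.22, 3.06 and 2.62% of the UMIs in WT 1 to 5 and no test was made. In oligodendrocyte-like cells 20 of the 73 tested members were higher and 7 lower, against 14.8% and 16.9% of all genes tested, and 9 were higher by DESeq2. With 1 animal left out fewer than 20 were higher, and the number lower was 4 to 6. Uqcrb of complex III had a log2 fold of 0.80 there and Atp5j of -0.75. In microglia-like cells 2 of the 72 tested members were higher and 9 lower, against 13.1% and 17.3% of all genes tested, with Ndufa4 at -1.19 and Uqcrb at 0.71 on the log2 scale, and without WT 1 the number lower was 5. The Uqcrb call was lost in 5 of 6 alternatives, and the number higher was 0 by DESeq2 and 0 or 1 with 1 animal left out. In endothelial-like cells 0 of the 72 tested members were higher and 16 lower, against 9.36% and 21.5% of all genes tested, though with plain library totals in place of TMM scaling 5 were higher and 4 lower. With 1 animal left out the number lower was 2 without WT 1, 0 without WT 2, 6 without WT 3 and 4 without WT 4. In vascular fibroblast-like cells 11 of the 73 tested members were higher and 9 lower, against 13.9% and 23.9% of all genes tested. With 1 animal left out the number higher ran from 5 (without WT 4) to 13 and the number lower from 4 (without WT 5; 5 without WT 2) to 10, and DESeq2 called 7 and 5. Here Cox6b2 reached 138, 123, 57.97, 70.3 and 123 CPM against 4.69, 7.25, 5.696, 4.94 and 1.78 CPM, and as it passed the filter on low counts in this class and not in the other glial and vascular WT classes, no p is given. It is 1 of the 11, and its call has no weight in that count. Cox6c, a subunit of complex IV, reached 2699, 2828, 2879, 3325 and 2072 against 1269, 1492, 1532, 1440.3 and 1247 CPM (log2 fold 0.94 ± 0.11 (SE), adjusted p = 4.58e-15). All 5 values of Cox6c were above all 5 of the granule lineage. In GABAergic neuron-like cells 5 of the 73 tested members were higher and 13 lower, against 12.1% and 15.1% of all genes tested. DESeq2 called fewer in both directions, plain library totals gave fewer lower, and fewer were higher with 1 animal left out. Atp5sl is 1 of the 5 and has no weight, for the same reason.

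The other glia of the tumors also held members in both directions. In oligodendrocyte-like cells of the tumors 10 of the 74 tested members were higher and 6 lower, against 18.6% and 24.7% of all genes tested, Sdhb at a log2 fold of 0.62 and Atp5j at -0.81. With the set 1 tumors alone 1 was higher, and with the set 2 tumors alone 2 were lower. With 1 tumor left out the number higher went as low as 5. In microglia-like cells of the tumors 16 of the 74 tested members were higher and 15 lower, against 23.5% and 37.7% of all genes tested, and with plain library totals 3 and 38. Ndufa4 was lower there (log2 fold -0.82 ± 0.12 (SE), adjusted p = 4.87e-08) and Ndufv3 higher (log2 fold 0.80 ± 0.14 (SE), adjusted p = 9e-07). With the set 1 or set 2 tumors alone, 5 and 9 were higher.

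In the isoform families, 1 gene took nearly all UMIs in 4 of 6 cases. Cox6a1 held 99.8% of the Cox6a UMIs, Cox6b1 99.05% of Cox6b, Cox7b 99.8% of Cox7b and Cox8a 99.9% of Cox8. Within Cox7a, Cox7a2 held 77.3%, Cox7a2l 22.3% and Cox7a1, the muscle form, 0.423%. Within Atp5g, whose 3 genes encode the same mature protein, Atp5g3 held 85.3%, Atp5g1 14.5% and Atp5g2 0.164%. All these shares pool the cells of WT and tumors, which hides a difference within Atp5g. In the granule lineage Atp5g1 stood at 176 ± 36.2 CPM (SD, n = 5) in WT and 52.7 ± 12.3 in vehicle tumors, and Atp5g3 at 486 ± 28.1 and 429 ± 59.8. Atp5g1 has 4 near-identical genes in the annotation, which could take some of its reads. The 3′ end of Atp5g2 was identical over 200 bases to that of another gene counted in the tables, Gm10175, so its low count cannot be read as a low level. Cox7a1 and Cox6a2 are described here in astrocyte-like cells, where their levels differed between animals. Cox7a1 stood at 54.2, 47.6, 65.96, 134 and 49.6 CPM in astrocyte-like cells of vismodegib 1 to 5, at 0, 45.9, 20.7, 34.3 and 36.9 in those of vehicle 1 to 5, and at 12.9, 9.33, 7.72, 0 and 0 in those of WT 1 to 5. In the granule lineage it reached at most 3.82 CPM in any animal. These levels of Cox7a1 rest on 148, 26 and 6 UMIs over the 5 animals of each group, and treatment was not compared by a test in this class. Cox6a2 was uneven outside Purkinje-like cells, at 0, 115, 0, 0 and 2.304 CPM in astrocyte-like cells of vehicle 1 to 5, 7.74, 0, 0, 0 and 75.1 CPM in those of vismodegib 1 to 5 and 0 in those of all 5 WT animals, so that 1 tumor of each treatment held most of it.

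**Figure D2:**
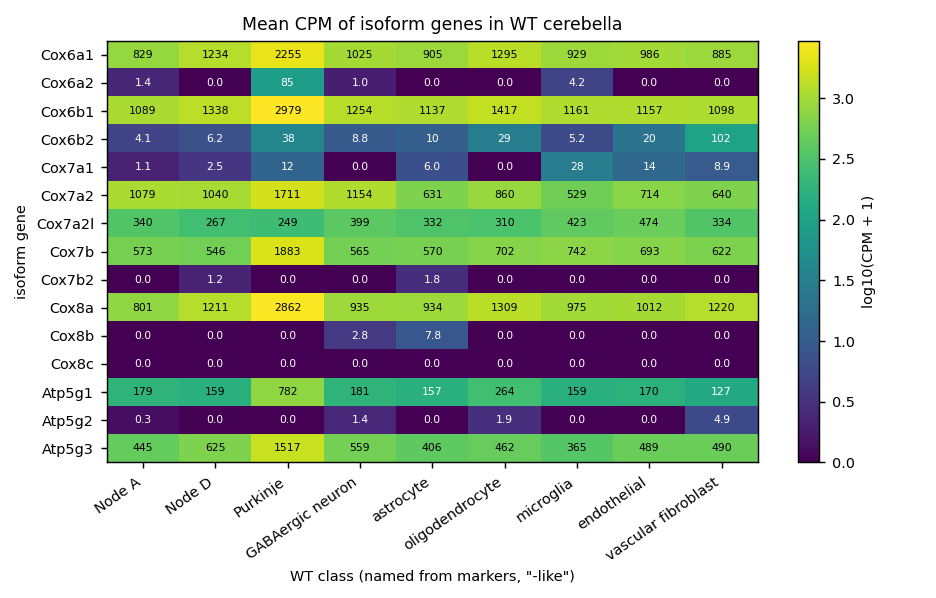
Heat map of the members of the 6 isoform families (rows) in the WT classes (columns); colour is log10(CPM + 1) of the mean over animals, and the mean CPM is written in each cell. The minor form Cox6a2 stands out in Purkinje-like cells and Cox6b2 in vascular fibroblast-like cells.

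From the dividing Node A-like to the differentiated Node D-like stage, members passed the test in both directions in WT, while most of those that passed it in the tumors were lower. Their share of UMIs in WT 1 to 5 was 3.13, 3.34, 3.36, 3.14 and 2.79% in Node A-like cells and 3.11, 3.503, 3.97, 3.30 and 3.01% in Node D-like cells, higher at the later stage in 4 of 5 animals. In vehicle 1 to 5 it was 2.55, 2.83, 2.09, 2.85 and 2.95% and then 2.12, 2.54, 1.72, 2.58 and 2.78%. The values were lower at the later stage in all 5. In vismodegib 1 to 5 it was 2.72, 2.26, 2.66, 3.09 and 2.93% and then 2.14, 1.72, 2.302, 2.65 and 2.55%, again lower in all 5. The middle stages lay at 3.26 ± 0.219% (SD, n = 5) in WT, 2.86 ± 0.392% in vehicle and 2.97 ± 0.3903% in vismodegib tumors for Node B-like cells. They lay at 3.07 ± 0.218%, 2.56 ± 0.358% and 2.399 ± 0.294% for Node C-like cells. In WT, 14 of the 72 tested members were higher and 13 lower, against 28% and 29.8% of all genes tested (median log2 fold -0.04). This balance moved with the settings, to 13 higher and 6 lower by DESeq2, 11 and 5 with sums thinned to 1 common total, 16 and 7 with plain library totals, and 7 and 20 at the finer clustering. In the tumors, 7 of the 73 tested members were higher and 48 lower, against 38.8% and 38.6% of all genes tested (median -0.30 for members and 0.01 for all genes). These tests blocked on the animal, since both stages came from the same one. By complex, the WT calls were 8 higher and 6 lower in complex I, 3 and 1 in complex IV and 2 and 5 in ATP synthase. The tumor calls were 4 and 20 in complex I, 0 and 3 in complex II, 1 and 6 in complex III, 0 and 7 in complex IV and 2 and 12 in ATP synthase. Fewer tumor members were higher in set 1 alone (2).

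**Figure D3:**
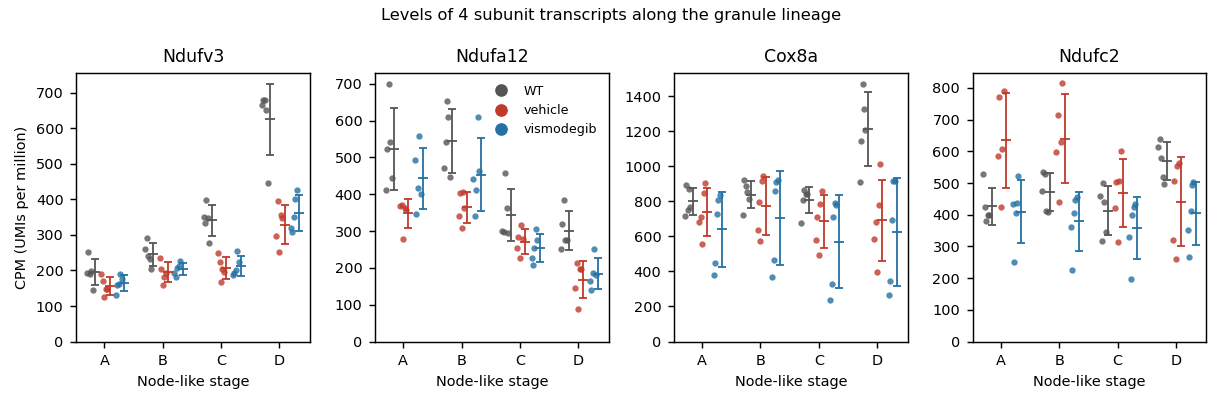
CPM of Ndufv3, Ndufa12, Cox8a and Ndufc2 (vertical axes) at the 4 stages of the granule lineage (horizontal axes) in WT, vehicle and vismodegib animals; points are animals and bars give the group mean ± SD. Ndufv3 climbs and Ndufa12 falls towards Node D-like cells in all 3 groups, while the group mean of Cox8a climbs in WT only.

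Ndufv3, an accessory subunit beside the NADH-binding module of complex I, had the largest log2 rise of the members called in WT, and in tumors the largest after the low-level Atp5sl. In WT 1 to 5 it stood at 194, 251, 189.9, 199 and 146 CPM in Node A-like and 665, 680.3, 679, 653 and 447 CPM in Node D-like cells (log2 fold 1.61 ± 0.10 (SE), adjusted p = 2.8e-21). In vehicle 1 to 5 it stood at 189, 169.6, 125, 148 and 148 and 296, 394, 251, 357 and 348 CPM, and in vismodegib 1 to 5 at 132, 158, 162, 191 and 177 and 319.6, 308, 351, 400.4 and 426 CPM (log2 fold 1.09 ± 0.07 (SE), adjusted p = 1.63e-14). Node A-like and Node D-like values did not overlap in any of the 3 groups, and WT Node D-like cells were above those of every tumor.

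Ndufa12, another accessory subunit of complex I, fell in both tissues. It stood at 411, 522, 698, 543 and 444 and 250.5, 319, 385, 276 and 275 CPM in WT 1 to 5 (log2 fold -0.86 ± 0.10 (SE), adjusted p = 9.51e-11). In the tumors it stood at 368, 371, 279, 364 and 358 and 146, 213, 89.6, 197 and 197 in vehicle 1 to 5, and at 494, 345, 418, 559 and 399.8 and 164, 139, 186, 252 and 180.3 in vismodegib 1 to 5 (log2 fold -1.18 ± 0.07 (SE), adjusted p = 1.43e-14). The stages did not overlap within any group. Atp5e, the epsilon subunit of ATP synthase, fell by 0.59 in WT and 0.84 in tumors on the log2 scale, and Ndufa2 of complex I by 0.66 and 0.83. Uqcrb of complex III rose by 0.59 in WT and 0.32 in tumors. Ndufs1, the largest core subunit of complex I, rose by 0.59 in WT, and Ndufa4 by 0.28 in tumors. The low-level gene Atp5sl, chosen after its values were seen, stood apart in tumors, with 2.98, 10.2, 6.92, 9.05 and 8.89 CPM in Node A-like and 16.7, 32.6, 21.5, 33.6 and 18.05 CPM in Node D-like cells of vehicle 1 to 5. As none of its Node A-like values reached the level the filter on low counts asks for, it entered the test through its Node D-like counts, so no p is given and its call has no weight among the 7. In the same way Atp5l, 1 of the 48 lower, entered through its Node A-like counts.

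The change from Node A-like to Node D-like cells was then compared between vehicle tumors and WT through an interaction of stage and tissue, and 0 of the 72 tested members were higher and 12 lower, against 4.52% and 4.09% of all genes tested (median -0.24, all genes -0.02). Lower means here that the member rose less, or fell more, in the tumors. The 12 were Ndufc2, Ndufb8 and Ndufv3 of complex I, Uqcr10 and Uqcrq of complex III, Cox6a1, Cox6b1, Cox6c and Cox8a of complex IV, and Atp5a1, Atp5b and Atp5o of ATP synthase, where Atp5a1 and Atp5b are the alpha and beta subunits of the catalytic head. Cox8a went from 719, 893, 754, 872 and 767 to 909, 1143, 1469.7, 1329 and 1206 CPM in WT 1 to 5, and from 684, 709, 559, 846 and 904 to 584, 682, 394, 782 and 1014 CPM in vehicle 1 to 5 (log2 difference -0.66 ± 0.12 (SE), adjusted p = 8.38e-06). It rose in all 5 WT animals and in 1 of the 5 vehicle tumors. Ndufc2 went from 527, 425, 379.8, 399 and 401 to 614, 638, 578, 520.0 and 496 CPM in WT and from 585, 771, 423, 607 and 789 to 321, 507, 262, 554 and 563 CPM in vehicle tumors, up in all 5 of the one and down in all 5 of the other (log2 difference -0.91 ± 0.13 (SE), adjusted p = 5.91e-08). For Cox6a1 the log2 difference was -0.65 ± 0.11 (SE), adjusted p = 6.22e-06 by edgeR. The count of 12 rested on single animals and settings. It was 5 to 10 with 1 animal left out (5 without WT 2, WT 3 or WT 5, and 6 without WT 1, vehicle 1 or vehicle 4), 7 without the hemoglobin-led clusters, 6 by DESeq2 and 21 without a filter on low counts. With an upper limit of 4 SD on cells, where the cells were clustered and named again so that the stages held other cells, 1 was higher and 2 were lower, and at the finer clustering, which also moved cells between stages, 1 higher and 1 lower.

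Mitochondrial DNA transcripts differed between the tissues in the same interaction, with 4 of 8 lower and mt-Nd2 at -0.53. Tumors held almost no mt-Nd3, as described below, so a call of mt-Nd3 has no weight among the 4. In WT 6 of 8 rose with differentiation and none fell (mt-Nd5 by 0.27 on the log2 scale), and in tumors none of 7 rose and 4 fell (mt-Nd1 by 0.45). Of the cytosolic ribosomal protein genes 67 of 73 were lower in WT and 74 of 78 in tumors. Of the mitochondrial ones 27 of 69 were lower in WT, beside 29.8% of all genes tested, and 58 of 71 in tumors, beside 38.6%. Among tricarboxylic acid cycle genes, Idh2 fell by 2.73 in WT and 1.68 in tumors. CPM is a share of all UMIs, so a member can hold its CPM while its molecules per cell fall. The lowest and highest median UMIs per cell among animals were 2372 and 3843.5 in WT Node A-like cells and 844 and 1343 in WT Node D-like cells.

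Vismodegib was compared with vehicle within each stage, so that a shift of cells between stages does not enter, and few members passed the test. Among Node A-like cells 0 of the 75 tested members were higher and 1 lower, against 0.63% and 1.48% of all genes tested. Among Node B-like cells 0 of the 74 tested members were higher and 0 lower, against 0.853% and 1.82% of all genes tested. For Node C-like cells 0 of the 74 tested members were higher and 0 lower, against 0.63% and 0.798% of all genes tested. For Node D-like cells 0 of the 72 tested members were higher and 0 lower, against 0.157% and 0.0997% of all genes tested. At an unadjusted p under 0.05 by edgeR the numbers were 7, 9, 1 and 3. Of all genes tested, 1138 of 9678 in Node A-like and 1388 of 9614 in Node B-like cells were under it, a larger share than among the members. For Node C-like and Node D-like cells, and for the alternative fits that follow, the share of all genes is not given. DESeq2 called 1, 2, 0 and 0 members lower and none higher. With the set as a covariate 2 members were lower in Node B-like cells. The number was the same with the serial number of the sample titles as a covariate of 2 levels, up to 10 and above 10. The median log2 fold over members was 0.04, 0.04, -0.10 and -0.06. The single call was Cox7a2l in Node A-like cells, at 239.8, 259.8, 198, 263 and 273 CPM in vehicle 1 to 5 and 146, 177, 177, 146 and 177 in vismodegib 1 to 5 (log2 fold -0.59 ± 0.14 (SE), adjusted p = 0.0352). Every vismodegib tumor was below every vehicle tumor for Cox7a2l, but the call was lost in 8 of the 10 fits that left out 1 tumor, in set 1 alone, with 1 cluster of the class alone and with the replicate number as a block (adjusted p = 0.0521), 11 of 24 alternatives in all.

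Ndufc2 also ran lower under vismodegib before differentiation without passing the test. In Node A-like cells it stood at 585, 771, 423, 607 and 789 CPM in vehicle 1 to 5 and 433, 252, 405, 437 and 522 in vismodegib 1 to 5 (log2 fold -0.63 ± 0.21 (SE), adjusted p = 0.169 by edgeR). In Node B-like cells it stood at 599, 714, 439, 629 and 816 and 361, 226, 405, 446 and 457 CPM (log2 fold -0.74 ± 0.21 (SE), adjusted p = 0.084). The groups overlapped at both stages, vehicle 3 being the lowest vehicle tumor. In Node D-like cells the log2 fold was -0.11, and in the interaction of stage with treatment, in which 1 of the 73 tested members were higher and 1 lower, against 2.01% and 1.61% of all genes tested, Ndufc2 was the member called higher (log2 difference 0.58 ± 0.12 (SE), adjusted p = 0.000844). The member called lower was Ndufv1, the subunit of complex I that binds NADH, at 158, 130.4, 129, 132 and 182 CPM in Node D-like cells of vehicle 1 to 5 and 114, 128, 106, 89.95 and 119 in those of vismodegib 1 to 5 (log2 difference -0.53 ± 0.15 (SE), adjusted p = 0.0327). The call is of the change from Node A-like to Node D-like cells, and Ndufv1 was not called between treatments in Node D-like cells alone. That second call was lost in 9 of 18 alternatives, among them DESeq2, no filter on low counts, no hemoglobin-led clusters and 5 of the 10 fits that left out 1 tumor. Node D-like cells of the treatment groups had their largest shares in different clusters, cluster 7 in vehicle (51.1%) and cluster 6 in vismodegib tumors (44.3%), Node C-like cells in cluster 3 (41.8%) and cluster 4 (49.98%), and Node B-like cells in cluster 0 (60.5%) and the replicating cluster 1 (55.7%), so that equal names do not make the cells alike.

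The 2 sets of tumors did not overlap in the share of the members. In Node A-like cells the member share was 2.09 to 2.55% in the vehicle and 2.26 to 2.72% in the vismodegib tumors of set 1. It was 2.83 to 2.95% and 2.93 to 3.09% in those of set 2. In Node D-like cells it was 1.72 to 2.12% and 1.72 to 2.302% in set 1, and 2.54 to 2.78% and 2.55 to 2.65% in set 2. At both stages every tumor of set 1 was below every tumor of set 2. Since the sets were drawn from these data, the difference is a description with no test. Cox8a gave an example in Node D-like cells of vismodegib tumors, at 267, 347, 693, 919 and 914 CPM in animals 1 to 5, of which the first 3 belong to set 1.

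Vehicle tumors were compared with WT cerebella at like stages, where age, genotype, device and alignment differ with the tissue and cannot be told apart. Nearly all members that passed the test were lower in the tumors. At the Node A-like stage 1 of the 72 tested members were higher and 32 lower, against 15.4% and 16.8% of all genes tested. At the Node B-like stage 2 of the 74 tested members were higher and 26 lower, against 17.4% and 19.4% of all genes tested. The Node C-like stage followed, where 2 of the 73 tested members were higher and 31 lower, against 14.9% and 17% of all genes tested. Last, at the Node D-like stage 0 of the 72 tested members were higher and 43 lower, against 13.1% and 14.9% of all genes tested. Atp5l and Ndufb4 are among the 43, and in the counts by complex below, but entered through their WT counts and have no weight. The median log2 folds were -0.38, -0.32, -0.36 and -0.59, beside 0.05, 0.05, 0.05 and 0.02 over all genes. Plain library totals in place of TMM scaling moved the medians of all genes to 0.16, 0.20, 0.20 and 0.14, with 20, 18, 20 and 35 members lower. By complex the Node D-like calls were 17 of 36 in complex I, 0 of 4 in complex II, 6 of 8 in complex III, 9 of 10 in complex IV and 11 of 14 in ATP synthase. The Node A-like count was 20 without WT 3, and in Node D-like cells at the finer clustering 27 members were lower. Without a filter on low counts 14, 15, 19 and 32 members were lower and 3, 6, 4 and 0 higher at the 4 stages. With the 3 vehicle tumors of set 2 alone, 18, 17, 19 and 30 were lower and 7, 8, 5 and 1 higher.

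**Figure D4:**
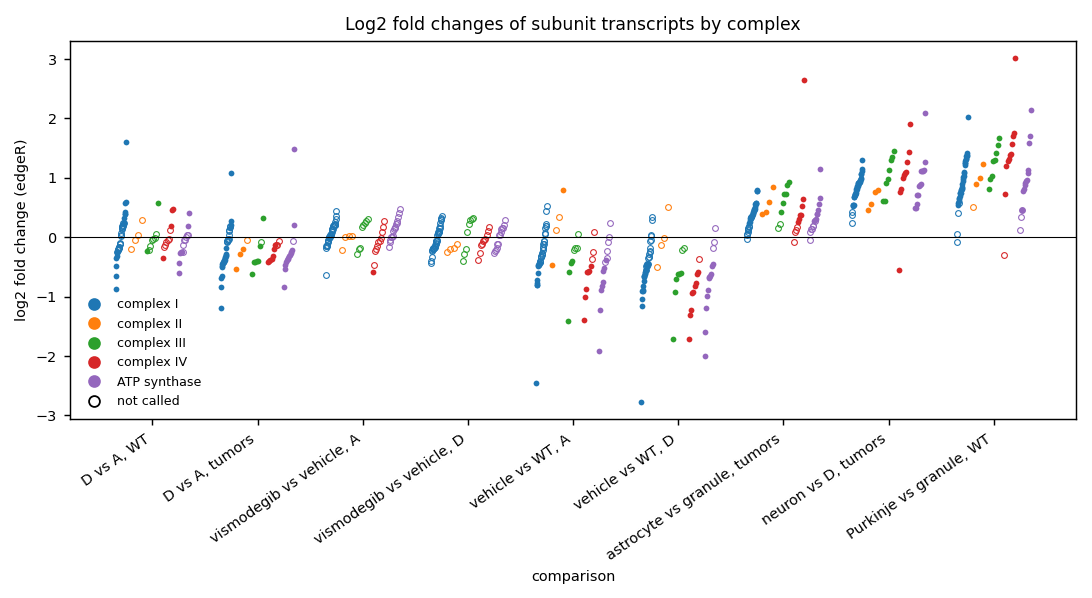
Log2 fold of every tested member (points) in 9 comparisons, coloured by complex; filled points passed the edgeR test at an adjusted p under 0.05. Members spread on both sides of 0 for vismodegib against vehicle, lie mostly below 0 for vehicle tumors against WT, and lie mostly above 0 in Purkinje-like and neuron-like cells; Cox6a2 at 7.59 is off the scale.

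The largest differences belonged to a few members. Ndufb4, an accessory subunit of complex I, stood at 231, 239, 361, 266 and 258 CPM in Node A-like cells of WT 1 to 5 and 28.3, 65.3, 58.5, 67.9 and 41.7 in those of vehicle 1 to 5 (log2 fold -2.45 ± 0.22 (SE), adjusted p = 1.29e-07). Its Node D-like values were 292, 351, 416, 236 and 275 and 25.01, 62.3, 35.9, 64.7 and 46.9 CPM, where Ndufb4, like Atp5l, entered the test through its WT counts and no p is given. Atp5g1 stood at 163, 184, 257, 151 and 137 and 26.8, 57.5, 57.7, 62.1 and 40.6 CPM in Node A-like cells (log2 fold -1.92 ± 0.23 (SE), adjusted p = 2.83e-06). Uqcrb stood at 314, 456, 537, 491 and 294 and 83.4, 142, 139.8, 176 and 135 CPM in Node D-like cells (log2 fold -1.72 ± 0.21 (SE), adjusted p = 9.21e-07). No vehicle value of these 3 genes overlapped a WT value. The other way, Sdhc, a membrane anchor of complex II, stood at 82.03, 80.6, 61.3, 83.8 and 85.9 CPM in WT and 128, 184, 107, 157 and 181 in vehicle Node A-like cells, again without overlap (log2 fold 0.80 ± 0.19 (SE), adjusted p = 0.00224). It was higher in Node B-like and Node C-like cells as well (0.84 and 0.69 on the log2 scale). Vismodegib tumors share genotype, age, device and alignment with the vehicle tumors. In their Node A-like cells Ndufb4 stood at 101, 36.1, 46.6, 79.7 and 47.2 CPM and Sdhc at 154, 108, 165, 158 and 184 CPM. Ndufb4 was below and Sdhc above every WT animal.

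A total of 21 members were lower in vehicle tumors at all 4 stages and none was higher at all 4. How many of all genes were lower at all 4 was not counted, so the 21 have no share beside them. Ndufb4 and Atp5l are among the 21 only through Node D-like calls that entered by their WT counts and have no weight. Of the 21, 15 had a near-identical 3′ end in an annotated transcript of another gene, among them Ndufb4, Atp5g1 and Uqcrb, against 31 of the 83 members. Of the 29 tested members with such a copy 18 were lower in Node A-like cells, and of the 43 without one 14 were. Copies outside the annotation were not looked for, and members missing from it (81 of the 83 were found) count as having none. Some of the 21 were lower in other cell types as well. Of these, 6 were lower in astrocyte-like cells, 13 in oligodendrocyte-like cells and 3 in microglia-like cells, and the WT mean was above the vehicle mean for 16, 21 and 19 of them. The glia came from the same animals as the stages by which the 21 were chosen, so this is a description and no separate support. The means were not counted in this way for the other members. Atp5l was not tested in any of these classes, and Atp5g1, Cox7c, Ndufb4, Ndufs3 and Ndufs5 were not tested in microglia-like cells. Over all members, in astrocyte-like cells 3 of the 71 tested members were higher and 6 lower, against 12% and 12.3% of all genes tested. That balance turned with plain library totals (8 higher and 5 lower) and with the vehicle tumors of set 2 alone (7 and 5), and Atp5a1 and Sdhd, both called higher, were each lost in 8 of 13 alternatives. In oligodendrocyte-like cells 0 of the 71 tested members were higher and 18 lower, against 12.9% and 14% of all genes tested. Fewer were lower with plain library totals and with the vehicle tumors of set 2 alone. In microglia-like cells 0 of the 55 tested members were higher and 3 lower, against 8.49% and 11.3% of all genes tested. In astrocyte-like cells 6 of the 28 tested members with a near-identical 3′ end were lower, and 0 of the 43 without one (median log2 folds -0.19 and 0.11). In microglia-like cells 3 of 21 and 0 of 34 were lower (-0.20 and 0.08). In oligodendrocyte-like cells 11 of 28 and 7 of 43 were lower (-0.41 and -0.28). Ndufb4 had log2 folds of -1.86 in astrocyte-like and -1.89 in oligodendrocyte-like cells, Atp5g1 of -1.59 and -2.28, and Uqcrb of -1.55 in microglia-like cells. Of the members called lower, 4 in astrocyte-like, 3 in oligodendrocyte-like and 2 in microglia-like cells, among them Ndufb4, Atp5g1 and Uqcrb, entered these tests through their WT counts, and their calls have no weight. Sdhc was higher in astrocyte-like cells too (1.12). These comparisons of tumor with WT in glia were added after the data had been seen. The study traced some astrocytic and oligodendrocytic cells of these tumors to the Math1-Cre lineage through Yfp, so these 2 classes need not be normal glia alone. The part of the copies and of the alignment in these values was not tested.

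**Figure D5:**
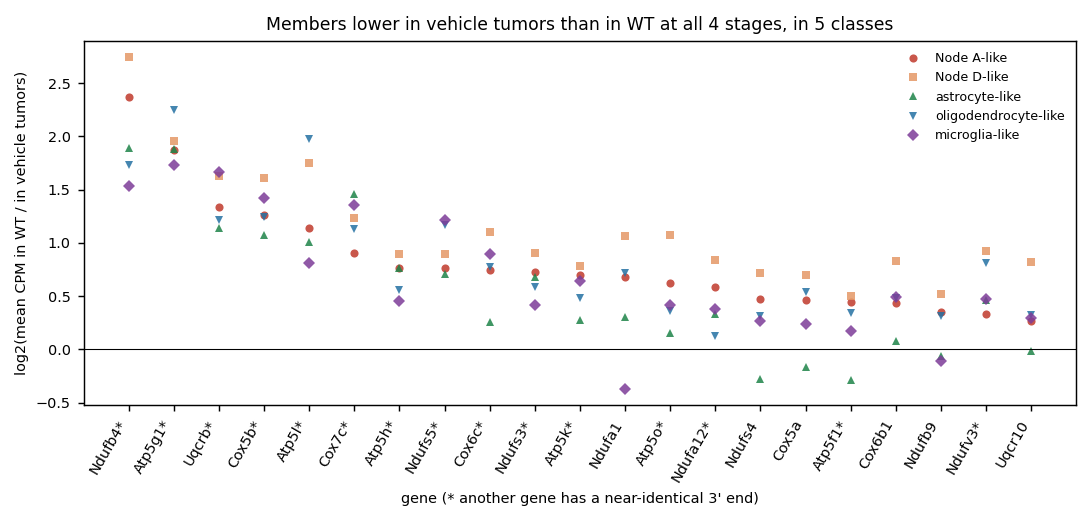
Log2 ratio of the mean CPM in WT to that in vehicle tumors (vertical axis) for the 21 members lower at all 4 stages (horizontal axis), with 1 point for each of 5 classes; an asterisk marks a near-identical 3′ end in another gene. Ndufb4 and Atp5g1 stand on the left with the highest ratios in Node A-like and Node D-like cells, and most points of the glial classes lie above 0 too.

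Of the lists outside the rule, some were mostly lower in this comparison and others were not. Of 8 tested mitochondrial DNA transcripts 5 were lower in vehicle tumors in Node A-like cells and 7 in Node D-like cells. mt-Nd3 had 189 UMIs in the Node A-like cells of 5 WT animals, 2 in those of 5 vehicle tumors and 0 in those of 5 vismodegib tumors, and mt-Nd5, a core subunit of complex I, had a log2 fold of -2.28. With so few UMIs in tumors, mt-Nd3 could enter these tests only through its WT counts, so a call of mt-Nd3 has no weight in these numbers. Of the cytosolic ribosomal protein genes 56 of 81 were lower in Node A-like cells (Rps28 at -2.79 on the log2 scale) and 1 higher. Of the mitochondrial ones 6 of 73 were lower and 1 higher, a smaller share than among all genes. Assembly factors (3 of 34 lower and 1 higher), regulators of biogenesis (1 of 10 lower and 3 higher) and tricarboxylic acid cycle and pyruvate genes (3 of 20 lower and 1 higher) had median log2 folds of 0.04, 0.24 and 0.03. Mpc1, a subunit of the mitochondrial pyruvate carrier, was among the 3 lower genes of the last list with a log2 fold of -1.92. Of the oxidative phosphorylation genes that the rule missed 5 of 7 were lower (median -0.57), Cycs, cytochrome c, at -1.52, and of the carriers and channels 3 of 6 were lower (median -0.54), with none higher in either list. The near absence of mt-Nd3 was shared by tumors of both treatments. Tissue, age, device and alignment cannot be told apart in it, and its bearing on the lower members was not tested.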

How the data were processed

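The deposited tables hold UMI counts per gene and cell for 15 animals, whole numbers that the authors made with Drop-seq Tools and STAR on mm10 with the transgenes added, tumor libraries after a first alignment to a mixed human (hg19) and mouse (mm10) genome. No source used here gives the annotation version. Members and lists were chosen with earlier results of these data known.

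A barcode had to hold 500 or more UMIs and 500 or more genes, and those more than 5 SD over the median of their animal in UMIs, genes or mitochondrial share were dropped. This upper limit was the only step against doublets, and no doublet caller was run. Tumor and WT cells were clustered separately (Louvain, resolution 0.8, igraph 0.11.9) with 262 genes held out, namely members and pathway lists other than the cytosolic ribosome, and named from markers. Red blood cell markers took no part in naming after hemoglobin-led clusters had at first been named by them.

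Counts were summed per animal and class (at least 10 cells) and tested with edgeR 4.0.16 (quasi-likelihood, TMM, filterByExpr, Benjamini-Hochberg over all genes tested), with the animal as block between classes of the same animal. DESeq2 1.42.0 was an alternative. The p-values rest on a spread between animals that edgeR estimated with information shared over all genes. In classes with few animals, such as Purkinje-like cells (3 animals), they do not measure a gene's own spread between them. All 26 comparisons stand in the report, 4 of them added after the data had been seen (neuron-like cells, and tumor against WT in 3 glial classes). Named members were those with the most UMIs of a complex, isoform families, and up to 3 called members per direction of at least 20 CPM. Others were chosen after their values were seen. The scripts were tested on simulated data. A result on a withheld item is not reported here.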

Additional observations from a re-analysis of the deposited data

Results flagged for a closer look

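Of 104 groups of animals looked at, 7 had 1 animal far from the rest by Dixon's test at the 95% level, and chance gives about 1 in 20. The endothelial-like cells of 1 WT animal had a member share of 3.52 against 3.12% in the nearest one. In Node D-like cells 1 WT animal stood low for Ndufv3 (447 against 653 CPM) and 1 for Cox7a2l (203 against 277 CPM), and 1 vismodegib tumor for Uqcrb (81.9 against 169.7 CPM). In Node A-like cells 1 vehicle tumor stood low for Ndufa12 (279 against 358 CPM) and 1 WT animal for Sdhc (61.3 against 80.6 CPM), and 1 WT animal stood high for Ndufb4 (361 against 266 CPM).

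The change from Node A-like to Node D-like cells differed between vehicle tumors and WT by the interaction test of edgeR for 12 members, with log2 differences of Atp5a1 -0.38, Atp5b -0.40, Atp5o -0.42, Cox6a1 -0.65, Cox6b1 -0.39, Cox6c -0.35, Cox8a -0.66, Ndufb8 -0.54, Ndufc2 -0.91, Ndufv3 -0.57, Uqcr10 -0.49 and Uqcrq -0.43. Of all genes tested 4.52% were higher and 4.09% lower in that test. The count of 12 fell with 1 animal left out, by DESeq2 and under the other clusterings, as given above. Between vismodegib and vehicle tumors the change differed for Ndufc2 (0.58) and Ndufv1 (-0.53), against 2.01% higher and 1.61% lower of all genes tested. The Ndufv1 call was lost in 9 of 18 alternatives.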

How the results depend on the processing

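Counts of called members are given here where they moved by more than 1.5 times, with the count of the report in parentheses. The cause was not tested. The share of all genes called under each alternative is not given, so no move is read as a result about the members. Without a filter on low counts the count moved to vismodegib in Node A 2 lower (from 1), vismodegib in Node B 1 lower (from 0), Node D against A in tumors 4 higher (from 7), stage change against WT 21 lower (from 12), stage change under vismodegib 2 higher (from 1) and 0 lower (from 1), vehicle against WT in Node A 3 higher (from 1) and 14 lower (from 32), vehicle against WT in Node B 6 higher (from 2) and 15 lower (from 26), vehicle against WT in Node C 4 higher (from 2) and 19 lower (from 31). With set 1 alone the count moved to vismodegib in Node A 0 lower (from 1), Node D against A in tumors 2 higher (from 7), astrocytes of tumors 13 higher (from 52), oligodendrocytes of tumors 1 higher (from 10), microglia of tumors 5 higher (from 16), neurons against Node D 14 higher (from 68) and 0 lower (from 1). With 1 cluster of the class the count moved to vismodegib in Node A 0 lower (from 1). With DESeq2 the count moved to vismodegib in Node B 2 lower (from 0), Node D against A in WT 6 lower (from 13), stage change against WT 6 lower (from 12), stage change under vismodegib 0 lower (from 1), vehicle against WT in Node A 2 higher (from 1), oligodendrocytes of WT 9 higher (from 20), microglia of WT 0 higher (from 2), endothelial cells of WT 4 lower (from 16), vascular fibroblasts of WT 7 higher (from 11) and 5 lower (from 9), GABAergic neurons of WT 3 higher (from 5) and 8 lower (from 13). With the serial number as covariate the count moved to vismodegib in Node B 2 lower (from 0). With the set as covariate the count moved to vismodegib in Node B 2 lower (from 0). With library totals in place of TMM the count moved to Node D against A in WT 7 lower (from 13), stage change under vismodegib 2 lower (from 1), vehicle against WT in Node A 3 higher (from 1) and 20 lower (from 32), vehicle against WT in Node B 4 higher (from 2), vehicle against WT in Node C 20 lower (from 31), vehicle against WT in Node D 1 higher (from 0), microglia of WT 1 higher (from 2) and 14 lower (from 9), endothelial cells of WT 5 higher (from 0) and 4 lower (from 16), GABAergic neurons of WT 8 lower (from 13), microglia of tumors 3 higher (from 16) and 38 lower (from 15), vehicle against WT in astrocytes 8 higher (from 3), vehicle against WT in oligodendrocytes 1 higher (from 0) and 11 lower (from 18). At a clustering resolution of 1.2 the count moved to Node D against A in WT 7 higher (from 14) and 20 lower (from 13), stage change against WT 1 higher (from 0) and 1 lower (from 12), stage change under vismodegib 2 lower (from 1), vehicle against WT in Node A 2 higher (from 1), vehicle against WT in Node D 27 lower (from 43). Thinned to 1 common total the count moved to Node D against A in WT 5 lower (from 13), vehicle against WT in Node C 1 higher (from 2). With an upper limit of 4 SD the count moved to stage change against WT 1 higher (from 0) and 2 lower (from 12), vehicle against WT in Node A 3 higher (from 1). Without hemoglobin-led clusters the count moved to stage change against WT 7 lower (from 12), stage change under vismodegib 0 lower (from 1). With RLE in place of TMM the count moved to stage change under vismodegib 2 lower (from 1), vehicle against WT in Node A 2 higher (from 1). With the vehicle tumors of set 2 alone the count moved to vehicle against WT in Node A 7 higher (from 1) and 18 lower (from 32), vehicle against WT in Node B 8 higher (from 2) and 17 lower (from 26), vehicle against WT in Node C 5 higher (from 2) and 19 lower (from 31), vehicle against WT in Node D 1 higher (from 0), vehicle against WT in astrocytes 7 higher (from 3), vehicle against WT in oligodendrocytes 1 higher (from 0) and 11 lower (from 18). With set 2 alone the count moved to oligodendrocytes of tumors 2 lower (from 6), microglia of tumors 9 higher (from 16), neurons against Node D 0 lower (from 1). With 1 animal left out the ranges were vismodegib in Node A 0 to 1 lower (from 1), vismodegib in Node B 0 to 1 lower (from 0), Node D against A in WT 8 to 12 lower (from 13), stage change against WT 5 to 10 lower (from 12), stage change under vismodegib 0 to 2 lower (from 1), vehicle against WT in Node A 1 to 4 higher (from 1), vehicle against WT in Node A 20 to 30 lower (from 32), vehicle against WT in Node B 2 to 4 higher (from 2), vehicle against WT in Node C 1 to 3 higher (from 2), vehicle against WT in Node D 0 to 1 higher (from 0), oligodendrocytes of WT 12 to 18 higher (from 20), oligodendrocytes of WT 4 to 6 lower (from 7), microglia of WT 0 to 1 higher (from 2), microglia of WT 5 to 11 lower (from 9), endothelial cells of WT 0 to 2 higher (from 0), endothelial cells of WT 0 to 6 lower (from 16), vascular fibroblasts of WT 5 to 13 higher (from 11), vascular fibroblasts of WT 4 to 10 lower (from 9), Purkinje cells of WT 0 to 1 lower (from 0), GABAergic neurons of WT 3 to 4 higher (from 5), oligodendrocytes of tumors 5 to 12 higher (from 10), neurons against Node D 0 to 1 lower (from 1), vehicle against WT in astrocytes 1 to 5 higher (from 3), vehicle against WT in oligodendrocytes 0 to 1 higher (from 0).

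With the replicate number as a block the count for vismodegib in Node A moved to 0 lower (from 1). Same-numbered animals had correlations from -0.238 to 0.451 over 40 pairs. Numbers 4 and 5 of the vehicle and vismodegib tumors, which all belong to set 2, varied together (0.258 to 0.451) and correlated best with their own number at all 4 stages, 8 of the 9 such cases, while numbers 1 to 3 did not. As not every number did so, the numbers were taken as names. Of the single members named, 1911 values under the alternatives kept direction and side of the threshold, 199 kept the direction and no longer passed it, and 1 changed sign, which was Atp5sl in microglia-like cells with set 1 alone (-0.21 on the log2 scale, adjusted p = 0.89 by edgeR). Sums went down to 10 cells in the small classes, and a member that was not called there may differ by less than these sums can show.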
